A study of Mus musculus with 12 samples.

Results

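Protocadherins are the largest family of cadherin-like adhesion molecules, and 35 of the 18193 genes measured on these arrays belonged to it. The members were all genes whose symbol begins with Pcdh, each read from the probe set of that gene alone with the highest mean signal over the 12 arrays. They comprised 22 genes of the Pcdhb cluster (Pcdhb1 to Pcdhb22), 1 gene of the Pcdhg cluster (Pcdhgc4) and 12 genes that stand singly in the genome. Of the single genes, 4 were of the delta1 type (Pcdh1, Pcdh7, Pcdh9 and Pcdh11x), 5 of the delta2 type (Pcdh8, Pcdh10, Pcdh17, Pcdh18 and Pcdh19), and Pcdh12, Pcdh15 and Pcdh20 were grouped with neither. No Pcdha gene had a probe set of its own, and the 6 probe sets for that cluster, each assigned to 9 or 14 Pcdha genes, are described without gene names. The members were thus chosen by symbol and their probe sets selected on the mean signal over all arrays. No difference between groups entered these rules, but earlier results of these data were known when the members were chosen.

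The arrays held RNA of laser-captured gonadal cells from mouse embryos at E11.5, the stage at which the gonad has not yet become a testis or an ovary. There were 4 groups of 3 arrays: wild type (WT) XX, Cbx2 knockout (KO) XX, WT XY and KO XY, all from crosses of Cbx2 KO heterozygotes. Cbx2 encodes a chromobox subunit of Polycomb repressive complex 1, which holds developmental genes silent. Each array was a pool of 2 or 3 individuals, so errors and p-values rest on the spread between pools. The sources used here do not give the KO allele, the deleted part of the gene or the mouse strain. The comparison asks how loss of Cbx2 changes transcription in XX and XY gonads.

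Clustered protocadherins lie in tandem arrays, in which each Pcdhb gene is a single exon with a promoter of its own. In neurons, each cell is known to use a few of these promoters, chosen through DNA methylation, the insulator protein CTCF and cohesin, and the proteins bind like to like between membranes. The single delta protocadherins are weaker adhesion molecules known for cell sorting, axon growth and signalling through the WAVE complex and other partners, mostly in the nervous system. Clustered genes are also known targets of the silencing factors SMCHD1 and SETDB1.

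All values are the deposited log2 signals, and 1 unit on this scale is a 2-fold difference. Group means are given ± SD (n = 3 pools) and differences as log2 fold change ± SE from 1 limma fit over all 18193 genes. A gene passed the test at a Benjamini-Hochberg adjusted p under 0.05 over all genes, and "averaged" marks the KO effect as the mean of the effects in XX and in XY. Brightness depends on the probes, so signals of different genes are not compared as amounts of RNA.

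The Cbx2 probe set was higher in every KO array (9.27 to 9.58) than in any WT array (8.46 to 9.04). Where its probes lie relative to the deletion is not known, so this signal does not check the genotype labels. KO and WT here mean what titles and genotype field say of an array, whereas the source field of every WT sample reads as KO XX. Xist and the Y-linked Eif2s3y matched the sex label of every array. Of the gonadal markers, Wt1 was at 10.93 ± 0.15 or above in all 4 groups, while Gata4, the marker used to guide the capture, was lower in KO (averaged -1.45 ± 0.12, adjusted p = 4.13e-07). WT XX replicate 1 stood apart, with the lowest mean correlation to its own group (r = 0.988 over genes).

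Across the family, more members were higher in KO than lower. Averaged over both sexes, 13 of the 35 protocadherins rose and 2 fell, and 20 did not pass, where 23.8% of all genes passed (13.4% higher and 10.3% lower). In XX, 9 rose and 2 fell (13.7% of all genes passed, 8.3% higher and 5.4% lower). In XY, 7 rose and 1 fell (13.3% of all genes passed, 6.56% higher and 6.75% lower). The 7 genes that rose in XY were all among the 9 that rose in XX, which is 100% of the first list and 77.8% of the second: Pcdhb3, Pcdhb16, Pcdhb17, Pcdhb20, Pcdhb22, Pcdh11x and Pcdh19. Pcdh20 was the gene that fell in both sexes. The XX and XY comparisons have no array in common, but the fit takes a shared estimate of the spread from all arrays. The calls in XX and in XY are therefore not independent, and no like overlap over all genes is given here. The members were chosen with earlier results of these data known, so these shares are descriptions.

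In the Pcdhb cluster, 9 of 22 genes rose in KO averaged over the sexes and none fell, where 13.4% of all genes were higher and 10.3% lower. In XX 7 rose and in XY 5, again with none lower, beside 8.3% and 6.56% of all genes that were higher. The median log2 fold change over the 22 genes was 0.15 averaged, 0.24 in XX and 0.20 in XY, beside -0.01, -0.02 and 0.01 over all genes. Averaged over the 22 genes, the signal of each KO array lay between 5.10 and 5.37 and that of each WT array between 4.76 and 4.91, so the genotypes did not overlap. Within a sex, the KO arrays lay above all WT arrays for 9 of the 22 genes in XX and 10 in XY, beside 14.1% and 18.9% of all genes. Over both sexes, all 6 KO arrays lay above all 6 WT arrays for 6 of the 22 genes, beside 6.22% of all genes.

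**Figure D1:**
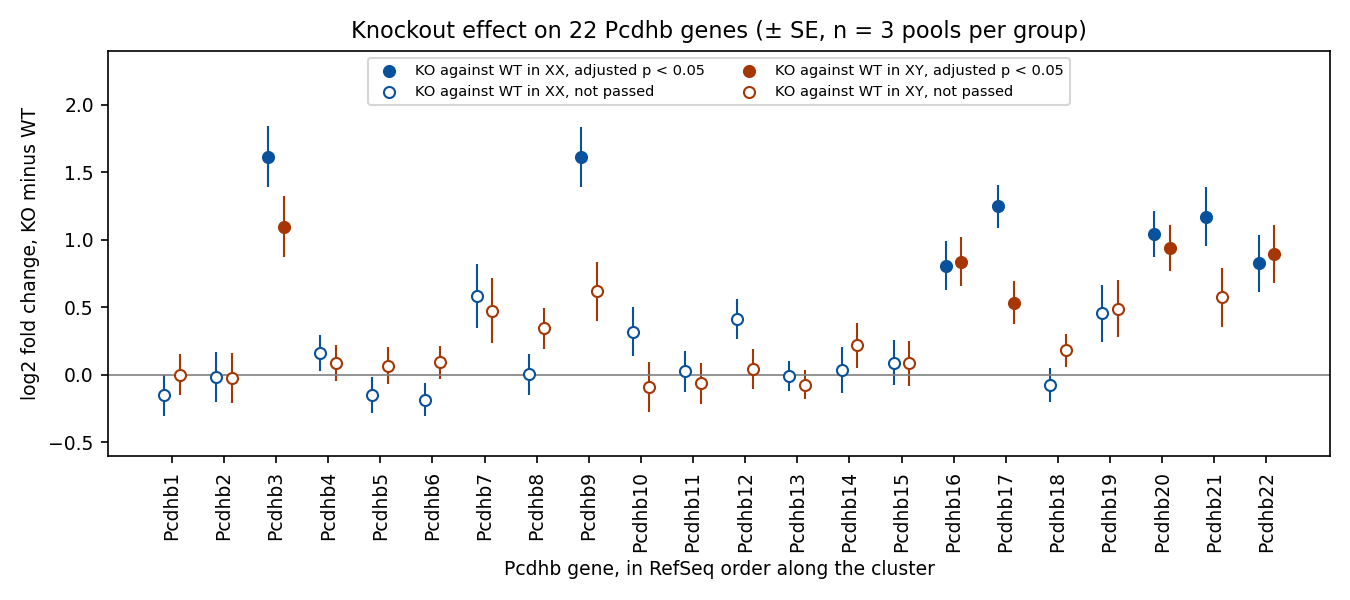
Log2 fold change of KO against WT (y axis, ± SE, n = 3 pools per group) for the 22 Pcdhb genes in their order along the cluster (x axis), in XX (blue) and XY (brown), with filled points for an adjusted p under 0.05. The filled points are 7 in XX and 5 in XY, all above 0, and lie at Pcdhb3, Pcdhb9, Pcdhb16, Pcdhb17 and Pcdhb20 to Pcdhb22. Of all genes, 8.3% in XX and 6.56% in XY passed as higher.

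Pcdhb3 changed most. In WT XX its pools read 5.73, 6.32 and 5.22, and in KO XX 7.54, 7.46 and 7.12. The XY pools read 6.30, 5.85 and 5.83 in WT and 7.28, 7.02 and 6.97 in KO. Every KO pool was above every WT pool in both sexes, and the lowest KO pool (6.97) stood clear of the highest WT pool (6.32). The difference was 1.62 ± 0.22 in XX (3.07-fold, adjusted p = 0.000187) and 1.10 ± 0.22 in XY (2.14-fold, adjusted p = 0.00394), and 1.36 ± 0.16 averaged (2.56-fold).

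Pcdhb9 rose in XX. Its WT XX pools read 5.02, 4.81 and 4.94 and its KO XX pools 6.67, 6.42 and 6.52, a gap of over 1 unit with little spread on either side. In XY the WT pools read 5.40, 5.41 and 5.49 and the KO pools 6.78, 5.82 and 5.56, so 1 KO pool was far above the other two. The difference was 1.61 ± 0.22 in XX (3.06-fold, adjusted p = 0.000177), 0.62 ± 0.22 in XY (adjusted p = 0.0838) and 1.12 ± 0.16 averaged (2.17-fold, adjusted p = 9.51e-05). Its KO effect in XY minus that in XX was -0.99 ± 0.31 (adjusted p = 0.751), which did not pass. Without KO XY replicate 1, the array with 6.78, that difference was -1.36 (adjusted p = 0.0266).

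Pcdhb20 had the brightest probe set of the cluster and Pcdhb18 the dimmest. For Pcdhb20 the pools read 6.40, 7.03 and 6.90 in WT XX and 7.70, 8.05 and 7.71 in KO XX. In XY they read 6.27, 6.72 and 6.64 in WT and 7.45, 7.37 and 7.63 in KO. All 6 KO pools were above all 6 WT pools, and the sexes gave nearly equal differences of 1.04 ± 0.17 in XX (adjusted p = 0.000741) and 0.94 ± 0.17 in XY (adjusted p = 0.00162). Pcdhb18 had group means of 3.09 ± 0.17 in WT XX, 3.02 ± 0.09 in KO XX, 3.12 ± 0.12 in WT XY and 3.30 ± 0.16 in KO XY, and its averaged difference of 0.05 ± 0.09 did not pass (adjusted p = 0.727).

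Pcdhb17 rose in both sexes. Its WT XX pools read 5.77, 5.32 and 5.55 and its KO XX pools 7.01, 6.91 and 6.48. The WT XY pools were at 5.71, 5.61 and 5.77 and the KO XY pools at 6.01, 6.23 and 6.45, so the groups did not overlap in either sex and the gap was wider in XX. The difference was 1.25 ± 0.16 in XX (2.38-fold, adjusted p = 9.8e-05) and 0.54 ± 0.16 in XY (1.45-fold, adjusted p = 0.0385). The XY call was lost when KO XY replicate 2 or 3 or any 1 WT XY replicate was left out (log2 fold change 0.43 to 0.57, adjusted p 0.0786 to 0.16), and the difference between the sexes did not pass.

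Pcdhb21 and Pcdhb22, the last genes of the cluster, rose as well. For Pcdhb21 the pools read 5.41, 5.52 and 5.25 for WT XX against 6.48, 7.08 and 6.15 for KO XX, while the XY pools were at 5.36, 5.07 and 5.90 (WT) and 5.91, 6.06 and 6.08 (KO). The KO pools lay above the WT pools, but in XY the highest WT pool (5.90) came level with the lowest KO pool (5.91). The difference was 1.17 ± 0.22 in XX (adjusted p = 0.00221), 0.57 ± 0.22 in XY (adjusted p = 0.105) and 0.87 ± 0.16 averaged (adjusted p = 0.000758).

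For Pcdhb22 the WT XX pools read 5.80, 6.65 and 6.20 and the KO XX pools 7.16, 7.29 and 6.68. In XY they read 5.87, 5.89 and 6.06 in WT and 6.54, 7.17 and 6.80 in KO. Within each sex the genotypes did not overlap, although the KO XY pool at 6.54 was below the WT XX pool at 6.65. The difference was 0.83 ± 0.21 in XX (adjusted p = 0.0175) and 0.89 ± 0.21 in XY (adjusted p = 0.0111). The XX call was lost without KO XX replicate 1, KO XX replicate 2 or WT XX replicate 1 (0.62 to 0.77, adjusted p 0.0609 to 0.0754) and the XY call without KO XY replicate 2 (0.73, adjusted p = 0.0633), while the averaged call (0.86 ± 0.15, adjusted p = 0.000655) passed in all of these.

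Pcdhb16 rose by the same amount in both sexes. Its pools read 5.93, 6.52 and 6.37 for WT XX against 6.73, 7.28 and 7.25 for KO XX, with 6.22, 6.08 and 5.77 for WT XY against 7.01, 6.68 and 6.90 for KO XY. No KO pool fell below a WT pool, and the difference was 0.81 ± 0.18 in XX (adjusted p = 0.00791) and 0.84 ± 0.18 in XY (adjusted p = 0.0063). Other probe sets of Pcdhb16 and Pcdhb21 were also on the array. In a fit over all 45037 probe sets, a second Pcdhb16 probe set gave 0.64 ± 0.12 averaged (adjusted p = 0.00178) and the last of its probe sets gave 0.07 ± 0.09 (adjusted p = 0.697). The second probe set of Pcdhb21 gave 0.53 ± 0.12 (adjusted p = 0.00669).

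Pcdhb7 and Pcdhb19 passed only as an average over the sexes, and with little margin. The Pcdhb7 pools read 4.55, 3.42 and 4.29 for WT XX against 5.01, 4.71 and 4.29 for KO XX, while the XY pools were at 4.12, 3.81 and 4.06 (WT) and 4.34, 4.54 and 4.53 (KO). In XX the groups overlapped and in XY they did not. Its averaged difference was 0.53 ± 0.17 (adjusted p = 0.0329), and the call was lost without KO XX replicate 1 or 2, KO XY replicate 2 or 3, or WT XY replicate 2 or 3 (0.45 to 0.55, adjusted p 0.054 to 0.0827).

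The Pcdhb19 pools read 6.50, 6.52 and 6.02 for WT XX against 7.04, 6.77 and 6.59 for KO XX, with 6.90, 6.01 and 6.09 for WT XY against 6.68, 6.95 and 6.84 for KO XY. WT XY replicate 1 (6.90) lay among the KO pools, and the XX groups were apart by less than 0.1. The averaged difference was 0.47 ± 0.15 (adjusted p = 0.0323), and it no longer passed without KO XX replicate 1 or 2, KO XY replicate 2 or 3, WT XX replicate 3, or WT XY replicate 2 or 3 (0.39 to 0.48, adjusted p 0.0557 to 0.0864).

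**Figure D2:**
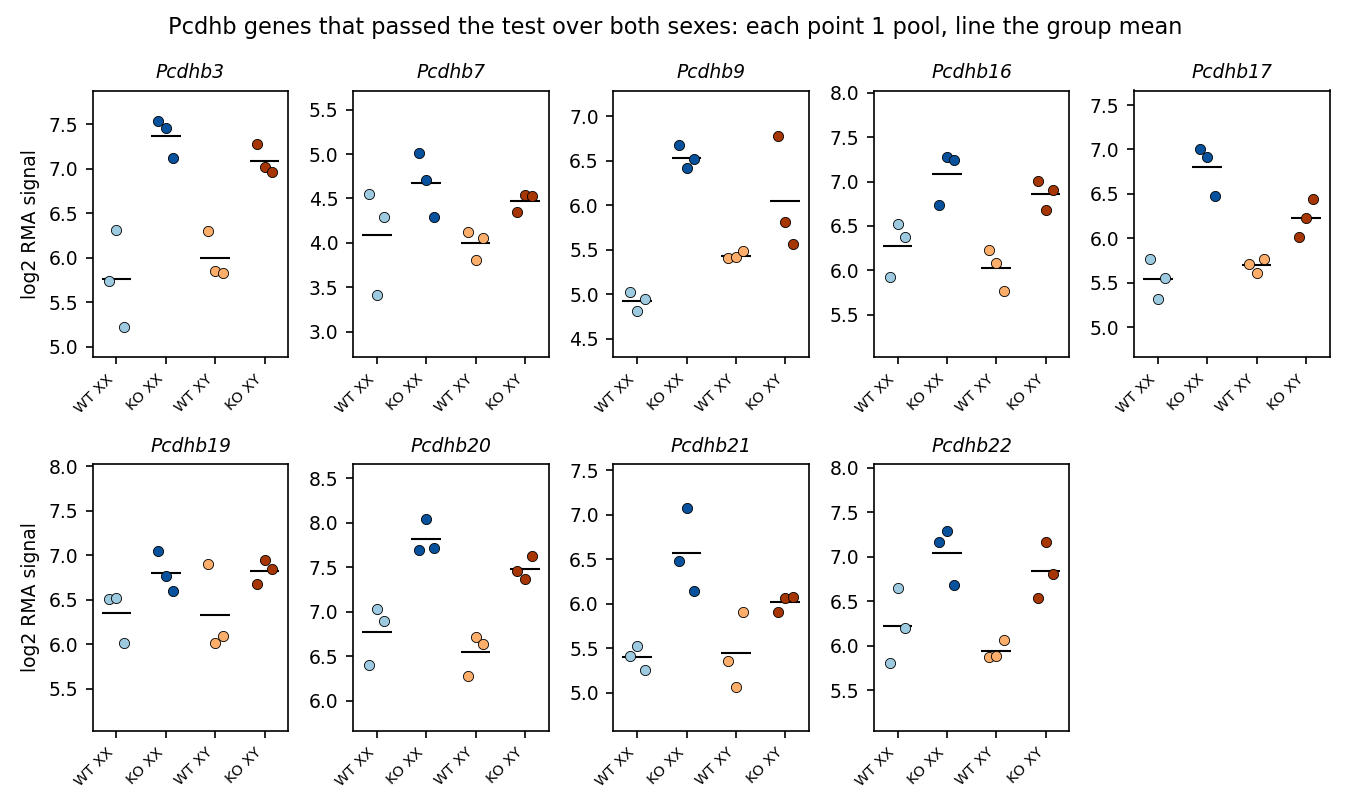
Log2 signal (y axis, its range set per gene) of the 9 Pcdhb genes that passed the averaged test, by group (x axis), with 1 point per pool and a line at the group mean. KO pools stand above WT pools of the same sex for most genes, as at Pcdhb20 (KO 7.37 to 8.05, WT 6.27 to 7.03), with overlap at Pcdhb7 in XX and at Pcdhb19 in XY.

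The other 13 Pcdhb genes had averaged differences between -0.07 and 0.23, the lowest adjusted p among them being 0.138. Most of them had dim probe sets. Of the 22 genes, 8 had a mean signal over all arrays above 5.14, the first quartile of all genes, and all 8 of these rose. Of the 14 below it, 1 rose (Pcdhb7), and at such signals a difference in RNA can go unseen. The mean includes the KO arrays, so a rise in KO itself lifts a gene toward the cut. The WT XX pools of Pcdhb9, for 1, read 4.81 to 5.02, below the cut. The order of Pcdhb1 to Pcdhb22 along the chromosome follows their numbers in RefSeq (GRCm38.p6). Genes 16 to 22 in that order held 6 of the 9 genes that rose, and genes 1 to 15 held 3, a split chosen after the values were seen and given without a test. Pcdhb genes resemble one another in sequence, and how far a probe set also binds RNA of a related member was not tested. The probe sets of Pcdhb14 and Pcdhb15, which did not change, carry suffixes that mark shared probes.

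The Pcdhg and Pcdha clusters were represented by few probe sets. Pcdhgc4, one of the C-type genes at the end of the Pcdhg cluster, had group means of 6.05 ± 0.08 in WT XX, 6.01 ± 0.37 in KO XX, 5.86 ± 0.13 in WT XY and 5.70 ± 0.37 in KO XY. Its averaged difference was -0.10 ± 0.13 (adjusted p = 0.664). Of the 6 Pcdha probe sets, 1 assigned to 14 genes was higher in KO by 0.55 ± 0.12 averaged (adjusted p = 0.00567 in the fit over all probe sets), and the other 5 did not pass. That probe set read 4.08, 4.31 and 3.52 in WT XX and 4.62, 4.52 and 4.48 in KO XX. In XY it read 4.20, 4.08 and 4.21 in WT and 4.79, 4.45 and 4.85 in KO, so its KO pools lay above the WT pools in both sexes. Neither sex passed alone (adjusted p = 0.054 in XX and 0.0739 in XY).

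Among the single protocadherins the changes went both ways. Averaged over the sexes, 4 of 12 rose (Pcdh19, Pcdh11x, Pcdh7 and Pcdh8), 2 fell (Pcdh20 and Pcdh17) and 6 did not pass, where 13.4% of all genes were higher and 10.3% lower. Promoters of 9 of the 35 members were matched in the RefSeq promoter table (GRCm38.p6), all of single genes. The 250 bases before the start are shown for 4 genes that changed, 2 that rose and 2 that fell, so that their very different content of the dinucleotide CG can be read directly. Each is given 5′ to 3′ on the strand of its gene, with CG in capitals.
Pcdh19, which rose, chrX:133688994-133689243, minus strand: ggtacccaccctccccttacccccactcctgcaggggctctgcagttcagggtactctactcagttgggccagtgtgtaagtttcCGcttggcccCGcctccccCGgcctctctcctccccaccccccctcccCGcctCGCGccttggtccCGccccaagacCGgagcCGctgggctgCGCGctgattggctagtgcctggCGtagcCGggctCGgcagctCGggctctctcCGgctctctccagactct
Pcdh8, which rose, chr14:79771313-79771562, minus strand: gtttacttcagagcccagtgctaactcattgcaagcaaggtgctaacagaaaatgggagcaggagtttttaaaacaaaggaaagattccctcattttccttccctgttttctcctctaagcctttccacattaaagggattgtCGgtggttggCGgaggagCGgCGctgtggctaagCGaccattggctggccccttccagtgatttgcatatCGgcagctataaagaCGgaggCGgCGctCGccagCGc
Pcdh17, which fell, chr14:84443313-84443562, plus strand: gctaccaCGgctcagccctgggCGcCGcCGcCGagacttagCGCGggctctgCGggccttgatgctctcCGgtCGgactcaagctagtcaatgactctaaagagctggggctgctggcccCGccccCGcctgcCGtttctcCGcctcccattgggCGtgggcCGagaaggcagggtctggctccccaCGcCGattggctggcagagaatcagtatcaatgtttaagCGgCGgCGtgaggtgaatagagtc
Pcdh20, which fell, chr14:88471397-88471646, minus strand: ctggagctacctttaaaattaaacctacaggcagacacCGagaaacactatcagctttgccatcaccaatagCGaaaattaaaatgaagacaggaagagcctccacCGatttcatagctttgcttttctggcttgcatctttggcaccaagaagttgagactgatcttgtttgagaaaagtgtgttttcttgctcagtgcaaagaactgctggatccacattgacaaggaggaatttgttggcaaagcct
The Pcdh19 sequence holds 16 CG and that of Pcdh8 holds 11, while Pcdh17 holds 21 and Pcdh20 only 3. The median over all 32851 promoters of this length was 6 CG, and 92.1% held at least 1. CG thus ranged from 3 to 21 among these 4 promoters and was not ordered by the direction of change. Among the genes that did not pass, Pcdh10 held 22, Pcdh18 23, Pcdh9 18 and Pcdh15 6, and Pcdh7, which rose, held 7. The 4 letters CGCT, on either strand, were in all 10 promoters of these 9 genes (Pcdh9 has 2 overlapping ones) and in 55.7% of all promoters. CGCT contains a CG, and most of these promoters held more CG than the median of 6. Promoters of like CG content were not compared.

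Pcdh19, an X-linked delta2 protocadherin that pairs with N-cadherin and is linked to an epilepsy of girls, rose most among the single genes. Its pools read 7.47, 7.79 and 7.18 in WT XX and 9.29, 8.62 and 8.56 in KO XX. In XY the WT pools read 7.82, 7.57 and 7.08 and the KO pools 8.77, 8.86 and 8.58. All 6 KO pools were above all 6 WT pools, and the WT means of the sexes were nearly equal (7.48 ± 0.30 in XX and 7.49 ± 0.38 in XY). The difference was 1.34 ± 0.22 in XX (2.53-fold, adjusted p = 0.000736) and 1.25 ± 0.22 in XY (2.37-fold, adjusted p = 0.00123). A second Pcdh19 probe set showed a larger difference, 1.72 ± 0.13 averaged (adjusted p = 5.15e-07), and the remaining one did not pass (0.14 ± 0.10, adjusted p = 0.392).

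Pcdh8, the delta2 protocadherin known as paraxial protocadherin or arcadlin, had widely spread WT pools. They read 9.0, 7.87 and 9.36 in WT XX and 7.97, 8.91 and 8.92 in WT XY, against 9.27, 8.98 and 9.35 in KO XX and 9.92, 9.18 and 9.58 in KO XY. The XX groups overlapped and the XY groups did not. The averaged difference of 0.71 ± 0.23 (adjusted p = 0.0395) was lost without any 1 KO XX replicate, KO XY replicate 1 or 3, WT XX replicate 2 or WT XY replicate 1 (0.49 to 0.76, adjusted p 0.051 to 0.11). Repeated quantile normalization, trend and robust eBayes, the Gapdh covariate and a threshold of 0.01, described further below, ended the call as well. Neither sex passed alone. The probe set used carries the suffix for probes shared with other transcripts, and the second Pcdh8 probe set gave nearly the same averaged difference, 0.73 ± 0.24 (adjusted p = 0.0495 in the fit over all probe sets, beside 0.0539 for the first in that fit).

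Pcdh17, a delta2 protocadherin known to recruit the WAVE complex at axon contacts, fell. Its pools read 6.98, 6.90 and 6.65 in WT XX and 6.52, 5.47 and 5.15 in KO XX. In XY the WT pools read 6.41, 6.68 and 6.48 and the KO pools 5.93, 5.10 and 6.61, so 1 KO XY pool lay within the WT range. The KO pools spread far more (SD 0.72 in XX and 0.75 in XY) than the WT pools (0.17 and 0.14). The difference was -0.89 ± 0.24 averaged (adjusted p = 0.0138), -1.13 ± 0.34 in XX (adjusted p = 0.0383) and -0.64 ± 0.34 in XY (adjusted p = 0.253). The XX call was lost without KO XX replicate 2 or 3, KO XY replicate 1, any 1 WT XX replicate or any 1 WT XY replicate (-1.23 to -0.85, adjusted p 0.0502 to 0.164). It was also lost under alternatives described further below. These were repeated quantile normalization, the mean of its probe sets, trend and robust eBayes, the Gapdh covariate and a threshold of 0.01. The second Pcdh17 probe set gave -1.11 ± 0.29 averaged (adjusted p = 0.0156).

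The remaining delta2 genes did not pass in any contrast by the probe set used. Pcdh18 had XX means of 10.45 ± 0.24 (WT) and 10.54 ± 0.02 (KO) and XY means of 10.39 ± 0.17 (WT) and 10.30 ± 0.14 (KO), an averaged difference of 0.00 ± 0.09. Pcdh10, which binds the WAVE complex through NAP1, had means of 6.21 ± 0.26 and 5.88 ± 0.11 in WT and KO XX and of 6.0 ± 0.06 and 6.25 ± 0.13 in WT and KO XY. The KO differences of Pcdh10 were -0.33 ± 0.13 in XX and 0.25 ± 0.13 in XY, opposite in sign, and neither these nor their difference passed. Of the other 5 Pcdh10 probe sets, 1 passed in XY in the fit over all probe sets, at 0.70 ± 0.18 (adjusted p = 0.0277). That probe set was dim, its XY pools reading 3.54, 2.98 and 3.24 in WT and 4.09, 3.57 and 4.19 in KO, and it gave -0.16 ± 0.18 in XX (adjusted p = 0.65). In the same fit the other Pcdh18 probe sets gave averaged differences of -0.33 ± 0.11 (adjusted p = 0.0595) and -0.30 ± 0.12 (adjusted p = 0.113), below the 0.00 of the one used but not past the threshold.

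Pcdh11x, an X-linked delta1 protocadherin, rose in both sexes. Its pools read 7.48, 8.87 and 8.16 in WT XX and 9.58, 9.23 and 8.93 in KO XX. In XY they read 8.04, 7.93 and 7.57 in WT and 9.21, 8.88 and 9.06 in KO. The KO pools were all above the WT pools, WT XX replicate 2 (8.87) coming closest. The difference was 1.07 ± 0.27 in XX (2.10-fold, adjusted p = 0.0144), 1.20 ± 0.27 in XY (2.30-fold, adjusted p = 0.00702) and 1.14 ± 0.19 averaged. Without KO XX replicate 1 the XX call was lost (0.91, adjusted p = 0.064). The second probe set gave 0.89 ± 0.17 averaged (adjusted p = 0.00201).

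Pcdh7, a delta1 protocadherin that binds the phosphatase inhibitor SET, rose as an average only. Its pools read 5.78, 5.89 and 6.02 for WT XX against 6.57, 6.56 and 7.32 for KO XX, while the XY pools were at 5.12, 5.64 and 5.65 (WT) and 6.74, 5.09 and 6.13 (KO). In XX the groups did not overlap, and in XY KO replicate 2 (5.09) was the lowest pool of all. The averaged difference was 0.72 ± 0.22 (adjusted p = 0.0311). It no longer passed without KO XX replicate 3, KO XY replicate 1 or 3, WT XX replicate 1 or WT XY replicate 1 (0.53 to 0.69, adjusted p 0.0508 to 0.0866). The other Pcdh7 probe sets did not share the rise, at -0.17 ± 0.10 (adjusted p = 0.312) and -0.01 ± 0.10 (adjusted p = 0.955), and the mean of all its probe sets gave 0.18 (adjusted p = 0.22).

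Of the other delta1 genes, Pcdh9 had means between 6.76 ± 0.34 in KO XX and 6.82 ± 0.25 in WT XX, and an averaged difference of -0.04 ± 0.12. Pcdh1, which is known from airway epithelium, had means between 4.73 ± 0.14 in KO XY and 4.87 ± 0.07 in WT XY, and its averaged difference was -0.09 ± 0.11. Neither passed in any contrast. In the fit over all probe sets the other Pcdh9 probe sets gave averaged differences of 0.25 ± 0.12 (adjusted p = 0.182) and -0.05 ± 0.07 (adjusted p = 0.706).

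Pcdh20 fell in both sexes. Its pools read 8.08, 7.51 and 7.71 in WT XX and 7.25, 6.96 and 7.29 in KO XX. In XY the WT pools read 7.89, 8.14 and 8.21 and the KO pools 7.23, 7.05 and 7.37. All 6 KO pools were below all 6 WT pools, which held for 5% of all genes. The difference was -0.60 ± 0.15 in XX (adjusted p = 0.0175), -0.86 ± 0.15 in XY (adjusted p = 0.00148) and -0.73 ± 0.11 averaged (adjusted p = 0.000167). The XX call was lost without KO XX replicate 2 (-0.50, adjusted p = 0.0748) or WT XX replicate 1 (-0.45, adjusted p = 0.0631). The second Pcdh20 probe set gave -0.25 ± 0.15 averaged and did not pass (adjusted p = 0.304), and with the mean of both the averaged difference was -0.49 (adjusted p = 0.00518) and neither sex passed alone.

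Pcdh12, a protocadherin of endothelial junctions, had pools at 7.98, 8.91 and 8.63 for WT XX against 8.83, 7.59 and 7.55 for KO XX, with 8.09, 8.31 and 8.34 for WT XY against 7.62, 7.54 and 7.67 for KO XY. The XY groups did not overlap, whereas KO XX replicate 1 (8.83) lay among the WT pools. The averaged difference of -0.58 ± 0.20 missed the threshold (adjusted p = 0.051). In the fit over all probe sets its other probe sets gave -0.27 ± 0.11 (adjusted p = 0.122) and -0.08 ± 0.08 (adjusted p = 0.581). Pcdh15, a part of the tip link of inner ear hair cells, had means between 5.96 ± 0.05 in KO XX and 6.16 ± 0.15 in KO XY, and its averaged difference was -0.01 ± 0.08.

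**Figure D3:**
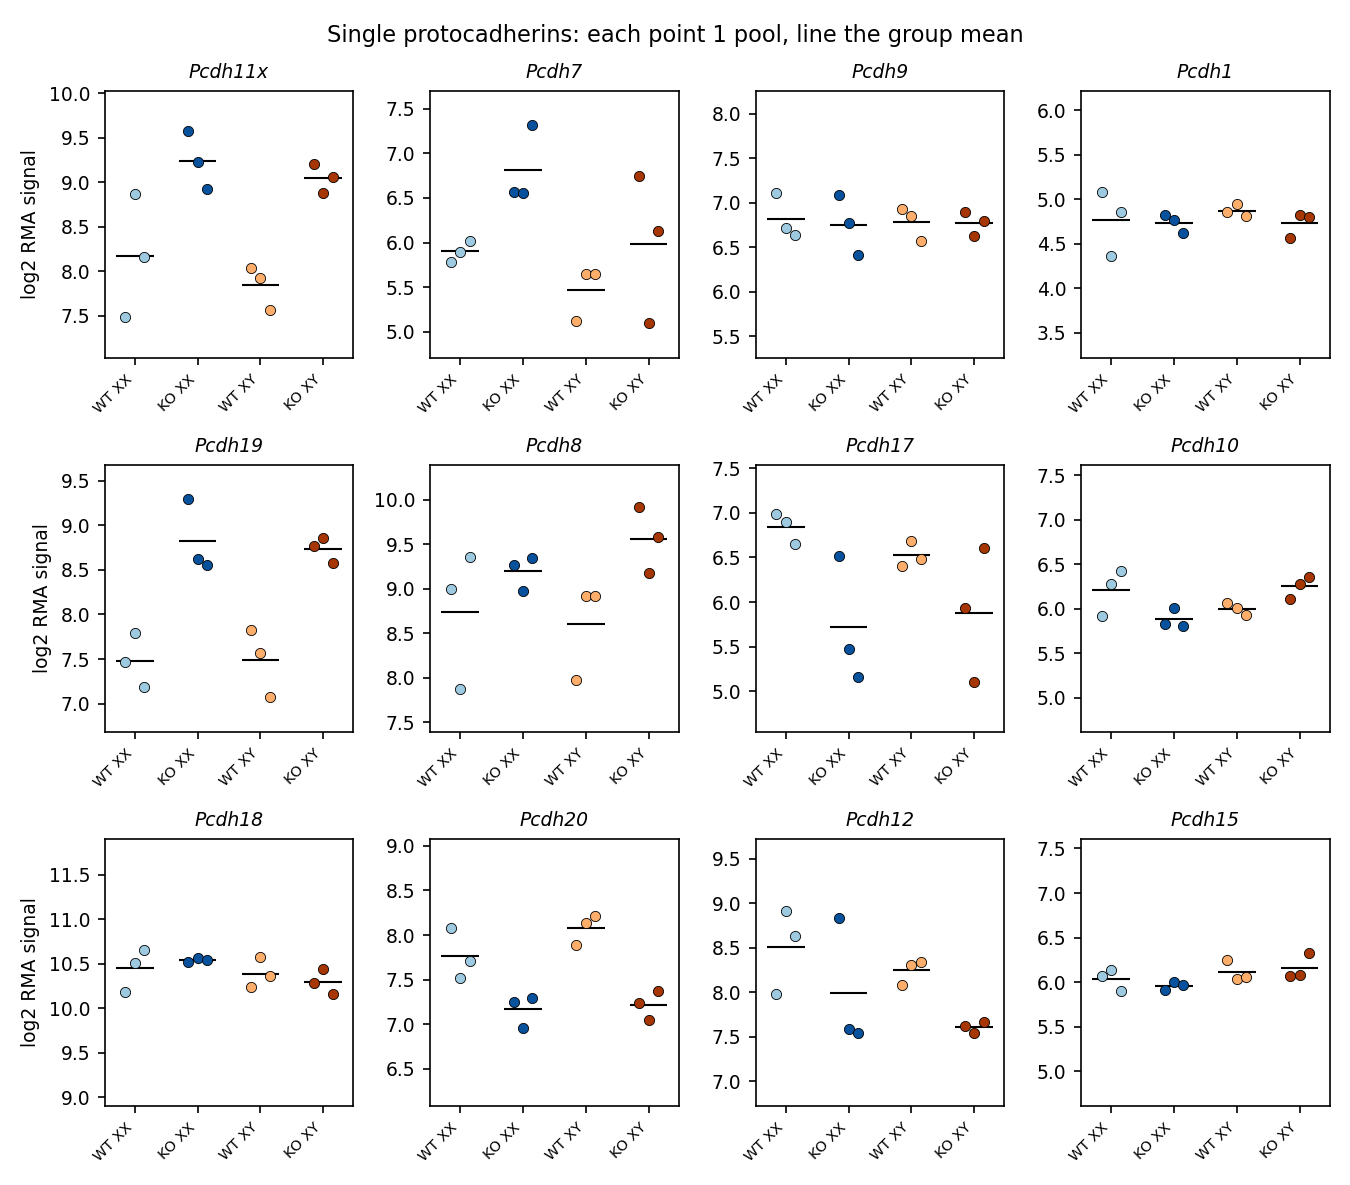
Log2 signal (y axis, its range set per gene) of the 12 single protocadherins by group (x axis), with 1 point per pool and a line at the group mean. Pcdh19 and Pcdh11x are higher in all KO pools, Pcdh20 is lower in all of them (KO 6.96 to 7.37, WT 7.51 to 8.21), and KO XX replicate 1 stands apart from its group at Pcdh12 and Pcdh17.

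No protocadherin passed for a difference between the sexes. Of the 35 genes, 0 passed for XY against XX in WT, where 0.0605% of all genes did, and 0 in KO, where 0.033% did. At an unadjusted limma p under 0.05 there were 1 in WT (Pcdhb9, higher in XY by 0.51) and 7 in KO. Of all 18193 genes, 1899 in WT and 1822 in KO were under that cut. The KO effect did not pass as different between the sexes for any member either (0 of 35, beside 0.0055% of all genes). At an unadjusted limma p under 0.05 there were 3 of 35 members for this difference, beside 1174 of all 18193 genes. The X-linked pair Pcdh11x and Pcdh19 had WT differences of XY minus XX of -0.33 and 0.01. A p that misses the threshold at 3 pools per group does not show that the sexes are equal.

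In the wider cadherin family, listed as classical and other cadherins, 7 of 21 measured genes rose and 2 fell averaged over the sexes, with a median of 0.09 beside -0.01 over all genes, of which 13.4% rose and 10.3% fell. These shares of all genes are the background for all list counts that follow. Cdh11, the mesenchymal cadherin, rose by 1.20 ± 0.11 (adjusted p = 1.56e-06) and Cdh10 by 1.09 ± 0.12 (adjusted p = 1.22e-05). Cdh8 rose by 0.95 ± 0.12, while Cdh9 was lower in KO (-1.37 ± 0.17, adjusted p = 3.71e-05). The related type II cadherins thus moved in both directions, as the single protocadherins did. Of 8 large and seven-pass cadherins 1 rose, Dchs1 by 0.48 ± 0.08 (adjusted p = 0.000341), and of 7 catenins 1 rose, the neural Ctnnd2 by 1.01 ± 0.21 (adjusted p = 0.0022). Both counts are at or near the 13.4% of all genes that rose.

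Among 18 measured regulators of the clustered genes, 4 rose and 1 fell averaged over the sexes, with a median of 0.06. That is close to the 23.8% of all genes that passed, so the count says nothing particular about the regulators. The DNA methyltransferase genes moved apart: Dnmt3a rose by 0.84 ± 0.11 (adjusted p = 3.83e-05) and Dnmt3b fell, with a difference of -0.56 ± 0.11 (adjusted p = 0.00185). DNMT3B is known to methylate clustered protocadherin promoters in the embryo. Rest, a repressor of neuronal genes, rose by 0.86 ± 0.20 (adjusted p = 0.00645) and the cohesin partners Pds5b and Nipbl by 0.31 ± 0.09 (adjusted p = 0.0167) and 0.48 ± 0.16 (adjusted p = 0.0439). Ctcf did not pass (-0.02 ± 0.09, adjusted p = 0.891). Among 16 measured signalling partners of protocadherins none rose and 4 fell, where 13.4% of all genes rose and 10.3% fell. The total was near the 23.8% of all genes that passed, so the count says nothing particular about these partners. All 4 were lower, a direction that was not tested, and the list median was -0.06. Those that fell were the kinase gene Fyn (-0.96 ± 0.11, adjusted p = 1.77e-05), the WAVE subunit gene Wasf1 (-0.41 ± 0.07, adjusted p = 0.000841), the shedding protease gene Adam10 (-0.28 ± 0.07, adjusted p = 0.00683) and Cyfip2 (-0.53 ± 0.16, adjusted p = 0.0302).

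Markers of several cell types moved with genotype in the same arrays, averaged over the sexes (23.8% of all genes passed, 13.4% higher and 10.3% lower), and in bulk RNA a smaller share of cells of a type cannot be told apart from less RNA per cell. Of 8 gonadal somatic markers 5 fell and 1 rose (Tcf21, 0.76 ± 0.12), led by Nr5a1 (-2.19 ± 0.12) and Nr0b1 (-2.24 ± 0.18), and the mean log2 signal of the list was 9.55 to 10.09 in KO arrays against 10.50 to 10.93 in WT arrays. Of 8 mesenchymal markers 7 rose, among them Col3a1 (0.99 ± 0.08) and Twist1 (1.12 ± 0.10), with list means of 10.23 to 10.54 in KO and 9.11 to 9.69 in WT. Of 10 coelomic epithelium markers 7 rose and 1 fell (Krt8, -1.49 ± 0.12), with Krt19 up by 2.56 ± 0.10 and Upk1b by 1.63 ± 0.13, and list means of 8.92 to 9.22 in KO and 8.10 to 8.40 in WT.

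Protocadherins are expressed in neurons, and neural markers moved too. Of 13, 6 rose, led by the neurofilament genes Nefl (1.89 ± 0.14) and Nefm (2.33 ± 0.23), and 1 fell, the growth cone gene Gap43 (-1.30 ± 0.15, adjusted p = 1.27e-05). The list mean was 6.05 to 6.41 in KO arrays and 5.66 to 6.03 in WT arrays, and 4 of the 13 markers had a mean signal below the first quartile of all genes. Of 5 neural crest and glial markers 1 rose (Erbb3, 0.55 ± 0.12), and S100b, with the next lowest p, did not pass (-0.11 ± 0.08). The part of these cell types in the rise of the Pcdhb genes, Pcdh11x and Pcdh19 was not tested.

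Endothelial markers were lower in KO. Of 12, 10 fell and none rose, with Sox17 at -1.35 ± 0.16 and Emcn at -0.97 ± 0.13, and the list mean was 6.65 to 7.46 in KO arrays and 7.53 to 7.91 in WT arrays. By replicate it was 7.46, 6.99 and 6.80 in KO XX and 7.07, 6.65 and 7.25 in KO XY. Pcdh12 and Pcdh17 had the order of these means within each KO group. Pcdh20 had it in KO XY but not in KO XX, where replicate 3, with the lowest endothelial mean, had the highest Pcdh20 value (7.29, against 7.25 in replicate 1). In neither WT group did Pcdh12, Pcdh17 or Pcdh20 have the order of the endothelial means. In WT XX the endothelial means of replicates 1 and 2 were level at 7.74. The means spread less within WT (SD 0.12 in XX and 0.07 in XY) than within KO (0.34 and 0.31), so their order in WT is less sure. In WT XY these means were 7.91, 7.77 and 7.81 by replicate. Replicate 1, the highest of them, had the lowest Pcdh12 (8.09), Pcdh17 (6.41) and Pcdh20 (7.89) of its group. These are orders of 3 arrays, given without a test. The part of endothelial cells in the lower signals of Pcdh12, Pcdh17 and Pcdh20 was not tested. Of the remaining lists, 4 of 8 macrophage markers rose, led by C1qb (1.11 ± 0.19) and C1qa (0.69 ± 0.13), and 5 of 9 germ cell markers rose, led by Prdm14 (0.57 ± 0.12) and Ddx4 (0.62 ± 0.17). Among 7 mesonephric markers 1 rose (Gata3, 0.66 ± 0.16) and 2 fell, Calb1 (-2.77 ± 0.20) and Pax8 (a difference of -0.32). None of 6 erythroid markers passed, the lowest p belonging to Klf1 (-0.41 ± 0.17) and Hbb-bh1 (-0.37 ± 0.17).

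**Figure D4:**
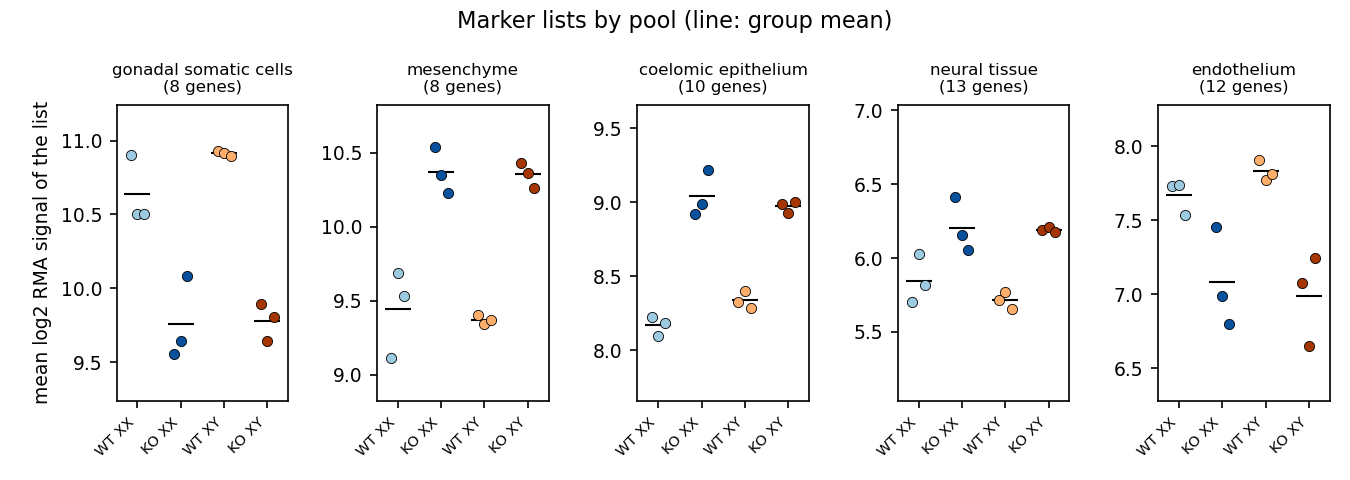
Mean log2 signal (y axis) of 5 lists of cell type markers by group (x axis), with 1 point per pool and a line at the group mean. KO and WT pools do not overlap in any of the 5 lists, with KO lower for gonadal somatic and endothelial markers and higher for mesenchymal, coelomic epithelium and neural markers.

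A measure of RNA quality moved with genotype in XY. The difference between the 3′ and 5′ probe sets of the control transcript Gapdh, which grows as RNA is shortened, was 4.91 ± 0.12 in KO XY and 4.13 ± 0.38 in WT XY, and 4.05 ± 0.22 in KO XX and 4.30 ± 0.45 in WT XX. In XY no KO array (4.78 or more) overlapped a WT array (4.57 or less), and in XX the groups overlapped. With this difference as a covariate, 1 protocadherin passed in XY, Pcdhb3 (1.26, adjusted p = 0.0407). Of all genes 780 passed in XY with the covariate, beside 2421 without it. In the fit with the covariate, 10 protocadherins passed in XX and 14 averaged over the sexes. The log2 fold changes of the other 7 genes in XY kept their sign in that fit, from 0.55 for Pcdhb20 and 0.64 for Pcdh11x to 1.19 for Pcdh19 (adjusted p = 0.0518), with Pcdh20 at -0.74 (adjusted p = 0.096).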

How the data were processed

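Total RNA of 12 pools of laser-captured gonadal cells was amplified in 2 rounds from 15 ng and hybridised to Affymetrix mouse arrays, per the labels' protocols. The deposited values are log2 signals that the authors made with RMA, per the submitters' processing notes, which name Affymetrix Expression Console, RMA and affy. RMA corrects background, quantile-normalizes arrays and summarises probes, so differences are relative to the whole array. The sources used here give no versions or scan batch, and raw scans were not analysed here. The number of arrays limits the precision.

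Of 45101 probe sets, 34945 belonged to 1 gene in the platform annotation, 932 to several and 9160 to none, and 64 were controls. Symbols were checked by gene identifier against RefSeq (34741 matched, 0 changed). A gene was read from its brightest probe set by the mean over all arrays. Groups came from titles. The fit used limma 3.58.1 in R 4.3.3 (lmFit, eBayes), with 4 group means, 8 residual degrees of freedom, 6 contrasts, two-sided tests, no block and no filter on low values, and was tested on simulated data. Promoter sequences are RefSeq's.

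The members, gene lists and tests were chosen with earlier results of these data known. Members past the threshold are given in full, other single genes and the brightest and dimmest gene of each cluster by group mean, related lists by up to 4 genes with the smallest averaged p, and marker lists by 2. Ctcf, Nipbl, Gap43, Tcf21, Krt8 and Pax8, and probe sets not used for a gene, were named in addition, after their values were seen. Adjusted p-values of the latter come from the same model fitted over all probe sets.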

Additional observations from a re-analysis of the deposited data

How the results depend on the processing

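With no alternative did a protocadherin that passed change direction. The 15 genes that passed gave 34 gene and contrast values, of which 18 kept their call under every alternative run and 16 lost it under at least 1 (81 of 779 single refits). The losses named gene by gene above are mainly those from leaving out 1 array. In XX, fitting only the groups of the contrast also ended the calls of Pcdh11x, Pcdhb22 and Pcdh20. Array weights ended those of Pcdh11x and Pcdhb22 in XX. The replicate block ended the XY call of Pcdhb17, and the Gapdh covariate the averaged call of Pcdh7. The counts of protocadherins that passed were 8 in XY, 11 in XX, 15 averaged, and 0 for each sex contrast and the interaction. Of all genes, 13.3% passed in XY, 13.7% in XX and 23.8% averaged. Testing only genes above the median gene, which leaves 7 members, gave 4, 4 and 6. A milder filter at the first quartile, added after the data were seen, left 20 members and gave 8, 11 and 15. Fitting only the groups of the contrast gave 13 in XY, the Gapdh covariate gave 1 in XY, and a threshold of 0.01 gave 7 in XX. The number of all genes that passed also varied between settings, so these counts alone do not show a change particular to protocadherins. Leaving out 1 array at a time gave 7 to 9 in XY, 8 to 12 in XX, 11 to 15 averaged, 0 to 1 for the interaction (Pcdhb9 without KO XY replicate 1) and 0 for the sex contrasts. With the replicate block the counts were 7, 11 and 15, and 0 elsewhere. Replicate numbers were not treated as pairs. The correlations of same-numbered deviations ran from -0.21 to 0.28, and 6 of 18 were over 0.1. Their mean was 0.04, beside -0.02 for different-numbered arrays, and such values cannot decide whether samples were paired. Repeating the quantile normalization over the genes used moved the split of all genes in XX from 1510 higher and 983 lower to 1292 and 1098. Other alternatives, with counts within 1.5 times the main count, were centring on array medians, the mean of a gene's probe sets, each probe set alone, trend and robust eBayes, and array weights.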
